A study of Mus musculus with 2 samples.

Results

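RNA from the spleen of mice with collagen-induced arthritis (abbreviated CIA) and from that of healthy mice was sequenced as 1 library per group, after depletion of ribosomal RNA. CIA is an arthritis model in which mice are immunized with type II collagen, and the healthy mice had no treatment. Day 40 stands in both titles, but the treatment text has the CIA mice sacrificed 42 days after their first immunization. The strain, age and sex of the mice, and how many gave each library, were not given in the sources used here. Only noncoding RNA could be used to examine the spleen label: intronic RNA of B and T cell genes was present in both libraries.

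The transcripts described here are noncoding transcripts at P2X7 receptor and inflammasome gene loci, 27 of the 32012 transcripts in the deposited tables. Of these, 17 are transcripts assembled by the authors that lie inside introns of P2rx7, P2rx4, Aim2, Casp4 or Tlr4, out of 12603 such intronic transcripts. The other 10 are annotated isoforms of 4 long noncoding RNA genes, Gm28501 and Gm37080 within Nek7, 4933439C10Rik near Nlrp3 and Gm15441 at Txnip. They were picked by class and gene name. With 1 library per group there is no replicate check and no test across mice, so every difference below is between 2 libraries. Levels are given as FPKM, fragments per kilobase of transcript and 1000000 fragments, with the CIA value first in each pair. FPM, FPKM multiplied by the length in kb, gives the fragments of a transcript per 1000000. A transcript was called higher or lower where log2((CIA FPKM + 0.1)/(healthy FPKM + 0.1)), the log2 ratio used throughout, was at least 1 in size, a 2-fold difference, and where at least 0.5 FPKM was reached in either library. The pseudocount of 0.1 FPKM pulls the ratios of low transcripts toward 0.

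P2X7 is an ion channel opened by extracellular ATP, and the loss of potassium that follows its opening is a classical trigger of the NLRP3 inflammasome. In that complex NLRP3, bound by the kinase NEK7, recruits an adaptor and activates caspase-1, which matures interleukin 1 beta and interleukin 18 and cleaves gasdermin D to open pores in the membrane. AIM2 starts a similar complex on cytosolic DNA, mouse Casp4 encodes the caspase that senses intracellular lipopolysaccharide, and TLR4, the receptor for extracellular lipopolysaccharide, primes the expression of inflammasome genes. The study's title places its lncRNA on the P2X7R-NLRP3 axis.

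Intronic RNA cannot show which protein is made, and the messenger RNA of these genes was not analysed here. Of the 17 intronic transcripts, 16 have a single exon and 10 carry no strand, against 92.8% single-exon and 75% strandless among all intronic transcripts. Their sequence was not read because no genome of this build was used. The sequences that can be shown are those of the annotated transcripts, and they matter for what the FPKM values can distinguish. The lines below show a stretch of 3 isoforms of 4933439C10Rik, from the GENCODE M21 transcripts on GRCm38. The 16 bases before the exon stretch they share, which come from different genomic positions, are in capitals. The start of the shared stretch is in lower case. For Gm28501, the fourth line shows its first exon (chr1:138515615-138515755, plus strand), with the 118 bases that lie opposite a Nek7 exon in capitals.
4933439C10Rik-202: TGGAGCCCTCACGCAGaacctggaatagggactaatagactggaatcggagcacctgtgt
4933439C10Rik-206: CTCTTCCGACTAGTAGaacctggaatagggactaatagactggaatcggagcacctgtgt
4933439C10Rik-203: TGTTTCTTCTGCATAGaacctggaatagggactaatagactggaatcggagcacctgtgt
Gm28501-201: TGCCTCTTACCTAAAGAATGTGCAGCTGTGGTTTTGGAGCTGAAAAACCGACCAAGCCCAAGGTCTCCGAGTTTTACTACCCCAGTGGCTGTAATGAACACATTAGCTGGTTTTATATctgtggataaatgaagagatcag

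Few of the 17 intronic transcripts differed by 2-fold between the libraries. All 17 reached 0.5 FPKM, 1 was higher by 2-fold or more in CIA spleen and 1 was lower, which is 5.88% each. Among the 12558 intronic transcripts that reached 0.5 FPKM, 15.6% were higher and 10.3% lower by this rule. The median log2 ratio of the 17 was 0.21, beside 0.25 for all intronic transcripts. A log2 ratio above 0 was found in 13 of the 17 (76.5%), against 63.7% of all intronic transcripts. The 13 include all 7 Aim2 transcripts, and only 8 of the 17 lay above the median of all intronic transcripts. The levels ran from 0.398 FPM for a P2rx7 transcript in the healthy library to 44.9 for an Aim2 transcript in the CIA library. Aim2 held 72% of these intronic fragments in the CIA and 62.3% in the healthy library. Values that rest on less than 1 FPM are the least precise, but the sequencing depth is unknown, so no counting interval can be given.

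**Figure D1:**
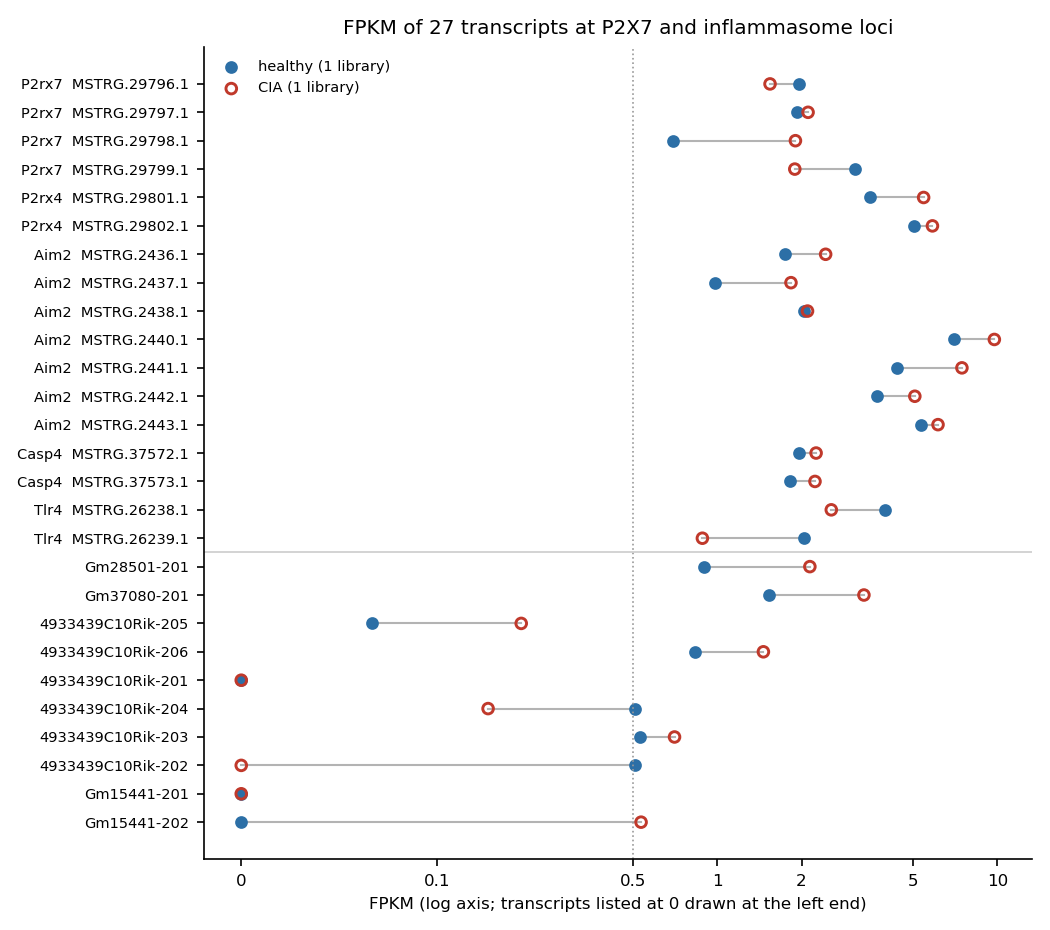
FPKM (log axis) of each of the 27 transcripts in the healthy library (filled blue) and the CIA library (open red), with a line joining the pair and a dotted line at 0.5 FPKM. The upper 17 are intronic transcripts, where the highest points belong to Aim2. CIA lies below healthy for both Tlr4 transcripts and for MSTRG.29796.1 and MSTRG.29799.1 of P2rx7. Transcripts listed at 0 are drawn at the left end.

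At P2rx7, the gene of the P2X7 channel on chromosome 5, intronic RNA was low and differed in both directions. Of its 4 transcripts, 3 lie in intron 5 of the isoform P2rx7-201, which is 4.77 kb long. MSTRG.29796.1 (122659678 to 122660147) was at 1.54 FPKM in CIA spleen against 1.97 FPKM in healthy spleen. MSTRG.29797.1 (122660501 to 122660740) was at 2.11 and 1.92 FPKM. MSTRG.29798.1 (122662220 to 122662792) was at 1.90 and 0.695 FPKM, a log2 ratio of 1.33, the only 2-fold higher intronic transcript of the 17. Neighbours in the same intron thus had log2 ratios of -0.33, 0.13 and 1.33, and the 3 together summed to 5.56 FPKM in CIA spleen against 4.58 FPKM in healthy spleen. In intron 9, MSTRG.29799.1 (122671515 to 122671783) was at 1.89 FPKM in CIA spleen against 3.09 FPKM in healthy spleen, and its log2 ratio was -0.68. Over all 4, the sums were 7.45 and 7.68 FPKM, a log2 ratio of -0.04. These 4 transcripts amount to 2.83 FPM in the CIA and 2.62 in the healthy library, and the 2-fold value of MSTRG.29798.1 rests on 1.09 and 0.398 FPM.

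P2rx4 encodes a second ATP-gated channel, next to P2rx7 on the same strand. MSTRG.29801.1 (122712772 to 122713779), in its first intron, was at 5.45 FPKM in CIA spleen against 3.50 FPKM in healthy spleen, and its log2 ratio was 0.62. MSTRG.29802.1 (122720480 to 122721357), in intron 5, was at 5.86 and 5.06 FPKM, a log2 ratio of 0.21. The authors' assembly gives this second transcript the minus strand, opposite to P2rx4. Both had a higher level in CIA spleen by less than 2-fold, though MSTRG.29802.1 lay below the median of all intronic transcripts (0.25), and both were more abundant than every P2rx7 transcript in both libraries, at the percentiles 86.1 and 90.7 of mean FPKM among all intronic transcripts.

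Aim2, the gene of the DNA sensor, spans 115 kb on chromosome 1 because a single isoform, Aim2-202, starts far upstream of the others. Its 7 transcripts all had a higher level in CIA spleen, with log2 ratios from 0.04 to 0.84 and none at 2-fold, but relative to the median of all intronic transcripts (0.25) only 5 of the 7 were higher, MSTRG.2438.1 and MSTRG.2443.1 being lower. The 4 transcripts in the later introns, all on the Aim2 strand, were the abundant ones. MSTRG.2440.1 (173422015 to 173426617) covers 65.1% of intron 4 of Aim2-202 and was at 9.75 FPKM in CIA spleen against 6.98 FPKM in healthy spleen, the highest level of the 27 transcripts in both. MSTRG.2441.1 (173428324 to 173433714), in intron 5, was at 7.47 and 4.40 FPKM, a log2 ratio of 0.75. MSTRG.2442.1 (173444944 to 173447582), also in intron 5 and the only spliced intronic transcript of the 17, was at 5.07 and 3.72 FPKM. MSTRG.2443.1 (173458904 to 173459506), in intron 8 and 192 bases from an Aim2 exon, was at 6.14 and 5.35 FPKM. Together these 4 gave 93.0 FPM in CIA spleen and 62.1 FPM in healthy spleen.

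The other 3 Aim2 transcripts lie in the first intron of Aim2-202, 43.0 kb long, carry no strand and were lower in level. MSTRG.2438.1 (173369083 to 173369807) was at 2.10 FPKM in CIA spleen against 2.04 FPKM in healthy spleen, nearly equal. MSTRG.2436.1 (173356823 to 173357436) was at 2.44 and 1.75 FPKM, and MSTRG.2437.1 (173358903 to 173359392) was at 1.83 and 0.982 FPKM. This last pair also lies within Cadm3, an adhesion molecule gene on the opposite strand, so its host gene cannot be told from these files. The 3 transcripts together gave 3.92 FPM in the CIA and 3.03 in the healthy library. The Aim2 sum therefore comes almost wholly from the later introns.

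**Figure D2:**
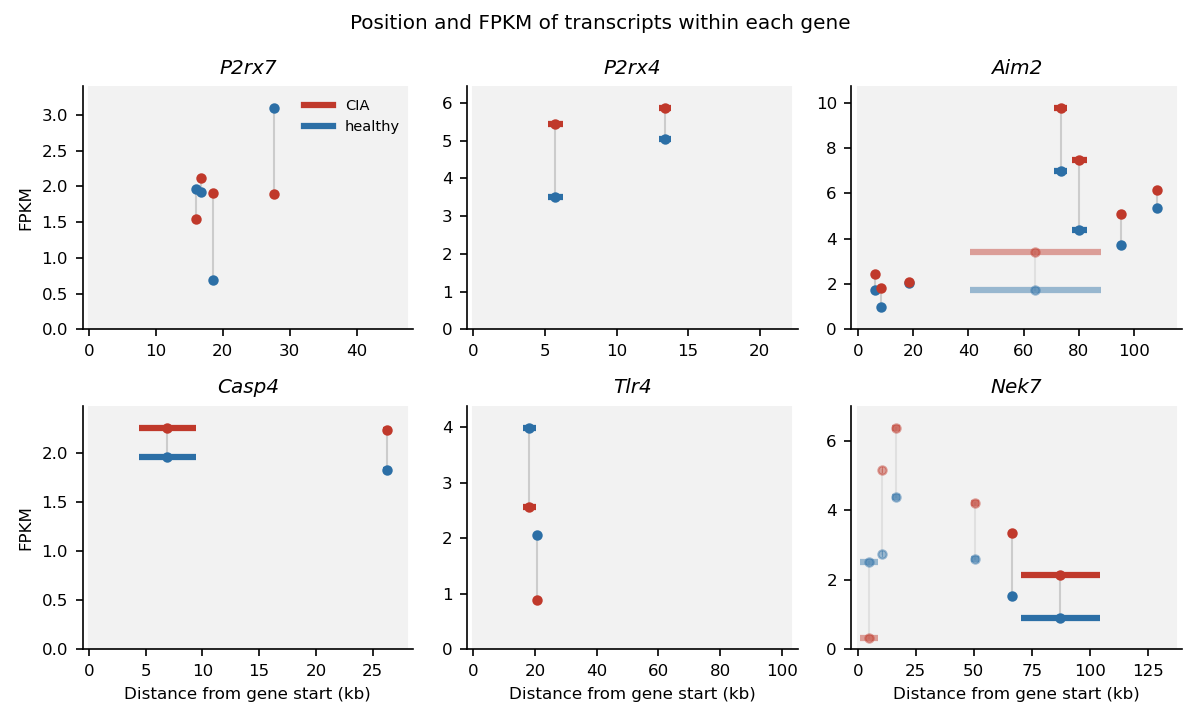
FPKM (vertical axis) of each transcript against its distance in kb from the start of the gene (grey band, the span of all annotated isoforms), with CIA in red, healthy in blue and horizontal bars as wide as the transcript. Faded symbols are transcripts at the locus outside the 27; the 4 abundant Aim2 transcripts lie in the later part of that gene, and red lies below blue at both Tlr4 transcripts.

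Casp4 encodes the caspase of the noncanonical inflammasome, which cleaves gasdermin D. MSTRG.37572.1 (chromosome 9, 5313210 to 5318294) covers 41.2% of its first intron and was at 2.25 FPKM in CIA spleen against 1.95 FPKM in healthy spleen. MSTRG.37573.1 (5334724 to 5335439), in intron 7, was at 2.23 and 1.82 FPKM. The pair had log2 ratios of 0.20 and 0.28, on either side of the median of all intronic transcripts (0.25).

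Tlr4 was the only one of the 5 host genes with every intronic transcript lower in the CIA library. MSTRG.26238.1 (chromosome 4, 66843655 to 66847817) was at 2.55 FPKM in CIA spleen against 3.98 FPKM in healthy spleen, and its log2 ratio was -0.62. MSTRG.26239.1 (66848111 to 66848605) was at 0.885 and 2.05 FPKM, a log2 ratio of -1.12, the 2-fold lower transcript of the 17. Both lie in intron 2 of the long isoform Tlr4-202, which is 90.3 kb. The first begins 855 bases beyond the end of the nearest Tlr4 exon, on the Tlr4 strand. That exon lies inside this intron and ends another isoform, so both transcripts are intronic only to Tlr4-202. RNA running on past that exon end cannot be told from intronic RNA here. The sums of the 2 transcripts were 3.44 FPKM in CIA spleen against 6.03 FPKM in healthy spleen. The second transcript amounts to 0.438 and 1.01 FPM, whereas the first, of 4163 bases, amounts to 10.6 and 16.6.

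**Figure D3:**
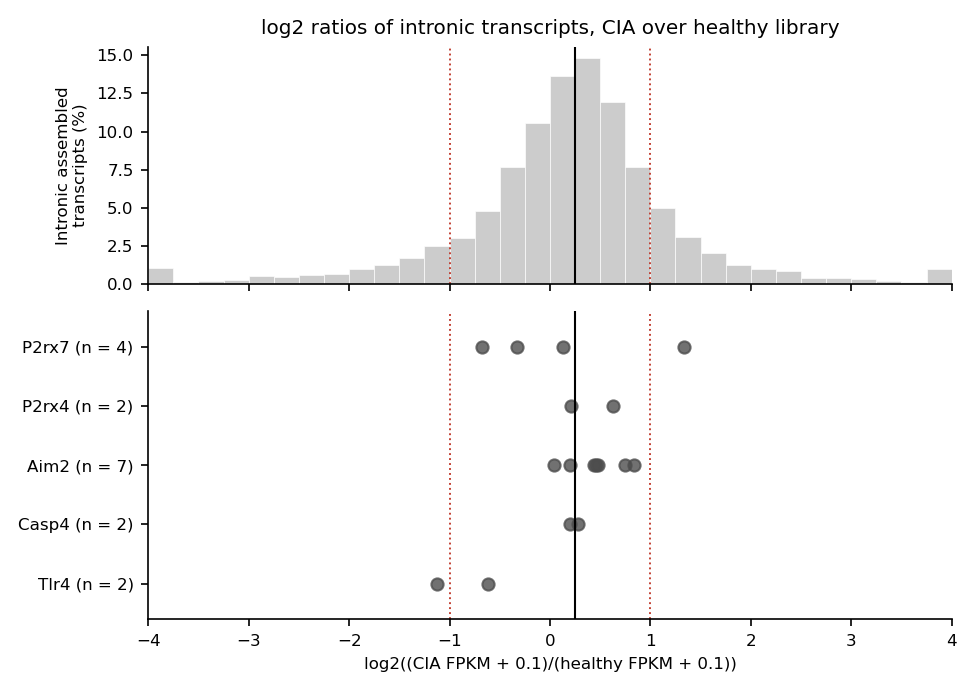
Upper panel, share of the 12558 intronic assembled transcripts by log2 ratio in bins of 0.25, with the end bins holding everything beyond. Lower panel, each intronic transcript of the 5 genes, where the black line is the median of all intronic transcripts (0.25) and the dotted lines mark 2-fold; only 1 P2rx7 and 1 Tlr4 transcript lie outside these lines.

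Spleen is a mixture of cells, and fewer cells of a type and less RNA per cell cannot be told apart in bulk RNA. Intronic transcripts of listed cell marker genes were therefore read beside these values. Among all intronic transcripts past the filter, 15.6% were higher and 10.3% lower by 2-fold or more. For 6 of 14 T cell genes, 48 of 56 transcripts were higher by 2-fold or more in CIA spleen with 0 lower, and they had a median log2 ratio of 1.38 and summed levels of 182.3 and 72.0 FPKM. For 5 of 12 B cell genes, 7 of 27 (25.9%) were higher and 2 (7.41%) lower, with a median of 0.72 and summed levels of 337 and 212 FPKM. The 15 transcripts of 4 of 9 dendritic cell genes had a median of 0.43, with 2 (13.3%) higher and 1 (6.67%) lower, near the shares of all intronic transcripts. The monocyte and macrophage list was thin, with 4 transcripts of Mertk and Vcam1 from 12 genes, a median of 0.09 and none past 2-fold. The 10 transcripts of 3 of 12 erythroid genes had a median of -0.34, none past 2-fold, and 9 of the 10 stood below 0. No intronic transcript of the neutrophil or NK lists was analysed here. The median of the 17 inflammasome-locus transcripts, 0.21, thus lay below the T and B cell medians. The part of cell composition in the Aim2 and Tlr4 differences was not tested.

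Most of the 2-fold calls among the annotated transcripts rest on models that are short or overlap other exons. Of the 10 isoforms, 7 reached 0.5 FPKM in either library, of which 3 were higher and 2 lower by 2-fold or more in CIA spleen. Among 3068 annotated transcripts past the same filter, 15.7% were higher and 6.13% lower. A low transcript such as these often passes through the library in which it is high, so the count of calls among those that passed is a description only.

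Nek7 encodes the kinase that binds NLRP3, and both annotated genes taken from its locus on chromosome 1 were called higher, though centring on the median of either class of transcript puts both under 2-fold. Gm37080 (138552305 to 138554708, minus strand) is a single-exon model of 2404 bases inside intron 2 of Nek7-201, on the Nek7 strand and 6995 bases from the nearest Nek7 exon. Its values were 3.34 FPKM in CIA spleen against 1.53 FPKM in healthy spleen, and its log2 ratio was 1.08. Because of this position, its reads cannot be told from intronic RNA of Nek7 itself. Gm28501 (138515615 to 138550009, plus strand), antisense to Nek7, has 3 exons and 421 bases and was at 2.14 and 0.895 FPKM, a log2 ratio of 1.17. As printed above, 118 of its bases (28%) lie opposite a Nek7 exon, and without a stated strand setting the reads of both genes cannot be separated there. In FPM, Gm37080 gave 8.03 and 3.67 and Gm28501 only 0.901 and 0.377.

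Other noncoding RNA of the Nek7 locus did not all differ in the same direction. Gm37101, a further annotated gene inside Nek7, was at 4.21 FPKM in CIA spleen against 2.60 FPKM in healthy spleen. The intronic transcript MSTRG.1812.1 was at 6.38 and 4.39 FPKM, and MSTRG.1813.1 at 5.18 and 2.73 FPKM. The opposite was found for MSTRG.1814.1 (138611659 to 138619415), which begins 0.726 kb from the Nek7 start and was at 0.328 FPKM in CIA spleen against 2.50 FPKM in healthy spleen, and its log2 ratio was -2.60. Over the 6 transcripts of the locus the summed FPKM was 21.6 in the CIA and 14.6 in the healthy library. As FPM, the sums were 45.7 and 45.6, since the lower transcript is the longest, at 7757 bases. The higher sum of FPKM at Nek7 was thus not found in the sum of FPM, which was nearly equal.

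4933439C10Rik lies on chromosome 11 on the same strand as Nlrp3, the sensor gene, with the nearest isoform end 27.9 kb before Nlrp3 begins, and it overlaps the zinc finger gene Zkscan17 on the opposite strand. Summed over 6 isoforms, it was at 2.52 FPKM in CIA spleen against 2.44 FPKM in healthy spleen, and its log2 ratio was 0.04. The isoforms differed beneath this sum. 4933439C10Rik-206, the most abundant, was at 1.46 FPKM in CIA spleen against 0.833 FPKM in healthy spleen, and its log2 ratio was 0.74. 4933439C10Rik-203, which retains introns, was at 0.704 and 0.529 FPKM. 4933439C10Rik-204 was at 0.152 and 0.509 FPKM, a log2 ratio of -1.27. 4933439C10Rik-202 was listed at 0 in CIA spleen and at 0.508 FPKM in healthy spleen, and its log2 ratio of -2.60 is set by the pseudocount. 4933439C10Rik-205 was at 0.200 and 0.0584 FPKM, below the filter, and 4933439C10Rik-201 was listed at 0 in both.

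The sequences of these isoforms limit what their separate levels can show. Of the 575 bases of 4933439C10Rik-202, 559 are shared with 4933439C10Rik-206, and the 16 in capitals above are all of it that 4933439C10Rik-206 lacks. Those 16 are in turn contained in the retained intron of 4933439C10Rik-203. 4933439C10Rik-206, 4933439C10Rik-204 and 4933439C10Rik-201 likewise have no base that is not also in another isoform. Only 4933439C10Rik-203, with 2269 such bases, and 4933439C10Rik-205, with 1095, have stretches of their own. In addition, 616 bases of 4933439C10Rik-206 (32.7%) lie opposite Zkscan17 exons. A splice junction that the other isoforms lack, such as the one printed above for 4933439C10Rik-202, can also tell isoforms apart. Reads across such junctions were not counted here. Beyond them, the isoform levels are shares assigned by the assembler. The sum of FPM, which does not depend on how fragments were shared among isoforms, was 5.73 in CIA spleen and 4.42 in healthy spleen, a log2 ratio of 0.37, and so lay above the 0.04 of the summed FPKM.

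**Figure D4:**
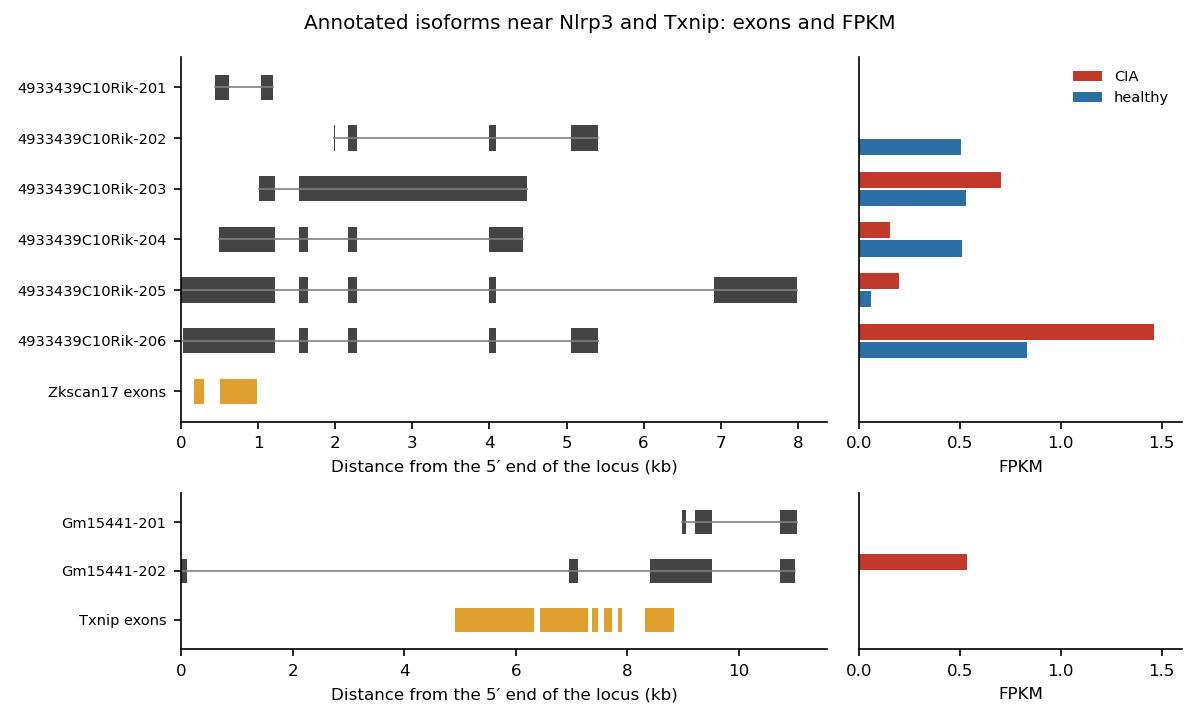
Left, exons (black) of the annotated isoforms of 4933439C10Rik and Gm15441 by distance in kb from the 5′ end of each locus, with the exons of the coding gene on the opposite strand in orange; right, FPKM of each isoform in the CIA (red) and healthy (blue) library. 4933439C10Rik-206 and 4933439C10Rik-202 share all but 16 bases of the shorter one, and Gm15441-202 (0.535 FPKM in the CIA library) crosses Txnip.

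Txnip encodes a redox-regulated arrestin that inhibits thioredoxin and has been described as a partner of NLRP3, and Gm15441, on the opposite strand of chromosome 3, has been described as its antisense RNA in mouse liver. Gm15441-202 (96555788 to 96566801) was at 0.535 FPKM in the CIA library and listed at 0 in the healthy library, and Gm15441-201 (96555765 to 96557815) was listed at 0 in both. The log2 ratio of 2.67 of Gm15441-202 is set by the pseudocount, and its level amounts to 0.884 FPM. Of its 1653 bases, 606 (36.7%) lie opposite Txnip exons, so reads of Txnip could be counted for it without a strand setting. It also covers the Txnip promoter, whose 250 bases before the start (chr3:96557707-96557956, plus strand, RefSeq on GRCm38.p6) are shown because all of them are exonic in Gm15441-202. Capitals mark the match to the carbohydrate response element.
Txnip promoter: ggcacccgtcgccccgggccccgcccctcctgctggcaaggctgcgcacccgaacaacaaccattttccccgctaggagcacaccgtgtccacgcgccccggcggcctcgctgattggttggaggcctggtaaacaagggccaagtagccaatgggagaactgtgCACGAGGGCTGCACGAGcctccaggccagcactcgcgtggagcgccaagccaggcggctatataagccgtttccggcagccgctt

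The element was sought as a pair of CACGNG blocks with 5 bases between them, 17 letters in all, on both strands of windows from 250 bases before to 50 bases after each start. It was found in 16 of 32851 RefSeq promoter windows (0.0487%), among them that of Txnip, a known target of the glucose-responsive factors that bind it, at 85 bases before the start. The match is contained in an exon of Gm15441-202 and in none of Gm15441-201, of which 60 bases fall in the window. Promoter windows were found for 8 of 12 genes sought, P2rx7, P2rx4, Aim2, Casp4, Nek7, Nlrp3, Txnip and 4933439C10Rik. The interferon elements ISRE (a pair of GAAA blocks 2 bases apart, in 3.44% of all windows) and GAS (TTCNNNGAA, in 8.30%) had no match in the 11 windows of these genes. A match is a description of the letters, and its absence says nothing about the factor.

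Other genes of the pathway were read through the intronic transcripts of 107 listed genes, of which 26 gave 50 transcripts past the filter. Of these, 6 (12%) were higher by 2-fold or more in CIA spleen, beside 15.6% of all intronic transcripts, and 10 (20%) lower, beside 10.3%. Their median log2 ratio was 0.27, close to the 0.25 of all intronic transcripts. Summed per gene, 2 of the 26 genes were higher and 5 lower. Several of the transcripts called, in both directions, passed the filter of 0.5 FPKM only through the library in which they were high. Some are also short and rest on less than 1 FPM in both libraries. The counts of calls are therefore a description only.

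Among purinergic genes, 0 of 5 transcripts were higher and 1 (20%) was lower, beside 15.6% and 10.3% of all intronic transcripts. The ectonucleotidase gene Entpd1, whose product removes extracellular ATP, had MSTRG.19714.1 at 0.0723 FPKM in CIA spleen against 1.74 FPKM in healthy spleen, but MSTRG.19717.1, much longer, at 2.94 and 3.52 FPKM. Ada, which encodes adenosine deaminase, had 2.50 and 1.50 FPKM, and the adenosine receptor gene Adora2a 3.53 and 2.53 FPKM. Among inflammasome sensors, 0 of 5 were higher and 2 (40%) lower. These were the single transcripts of Nlrp1a (1.12 and 2.84 FPKM) and Nlrp1b (1.09 and 2.44 FPKM). Those of Nlrp1a (335 bases) and Nlrp1b (240 bases), and MSTRG.19714.1 of Entpd1 (239 bases), rest on less than 1 FPM in both libraries. Nlrc4, whose product is a partner of the NAIP proteins, had MSTRG.17272.1 at 2.32 and 1.86 FPKM and MSTRG.17273.1 at 3.06 and 1.86 FPKM.

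Among inflammasome regulators, 0 of 9 were higher and 1 (11.1%) was lower, the Nek7 transcript MSTRG.1814.1 described above. Of the 9, which come from 4 genes, 8 (88.9%) had a log2 ratio above 0, beside 63.7% of all intronic transcripts. Mark4, a microtubule kinase gene, had 1.98 FPKM in CIA spleen against 1.15 FPKM in healthy spleen. Nlrc3, which encodes an inhibitory NLR protein, had MSTRG.14324.1 at 2.44 and 2.17 FPKM. Among adaptors, caspases and effectors, 2 of 3 (66.7%) were lower, beside 10.3% of all intronic transcripts. MSTRG.660.1 of Casp8, an initiator caspase gene, was listed at 0 in CIA spleen and at 3.29 FPKM in healthy spleen, while MSTRG.659.1 in the same gene was at 4.88 and 5.36 FPKM. Mlkl, which encodes the pore-forming protein of necroptosis, was at 0.787 and 2.73 FPKM.

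In the interleukin 1 family list, 4 of 13 transcripts (30.8%) were higher and 3 (23.1%) lower, beside 15.6% and 10.3% of all intronic transcripts. Both transcripts of the decoy receptor gene Il1r2 were lower, MSTRG.429.1 at 0.176 FPKM in CIA spleen against 1.71 FPKM in healthy spleen and MSTRG.428.1 at 0.260 and 2.13 FPKM. MSTRG.435.1 of the signalling receptor gene Il1r1 was at 3.13 and 0.249 FPKM, and MSTRG.14792.1 of its accessory protein gene Il1rap at 2.06 and 0.195 FPKM. The Il1r2 pair (366 bases for MSTRG.428.1 and 285 for MSTRG.429.1), MSTRG.435.1 (257 bases) and MSTRG.14792.1 (237 bases) each rest on less than 1 FPM in both libraries. Il1r1 held 9 transcripts, 3 of them higher and 1 lower, and summed to 17.7 and 13.5 FPKM. In Toll-like receptor signalling, 2 of 15 (13.3%) were higher and 1 (6.67%) lower. MSTRG.14037.1 of the kinase gene Irak4 was at 2.65 FPKM in CIA spleen against 0.00923 FPKM in healthy spleen, but MSTRG.14038.1 in the same gene at 1.54 and 1.94 FPKM. MSTRG.9121.1 of the adaptor gene Traf3 was at 7.88 and 3.52 FPKM. Tlr5, the flagellin receptor gene, was at 0.793 and 2.02 FPKM, and Tlr3, the receptor gene for double-stranded RNA, at 1.75 and 2.51 FPKM. Tlr7, the single-stranded RNA receptor gene, had MSTRG.41079.1 at 6.89 and 7.31 FPKM and MSTRG.41078.1 at 7.48 and 6.60 FPKM.

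**Figure D5:**
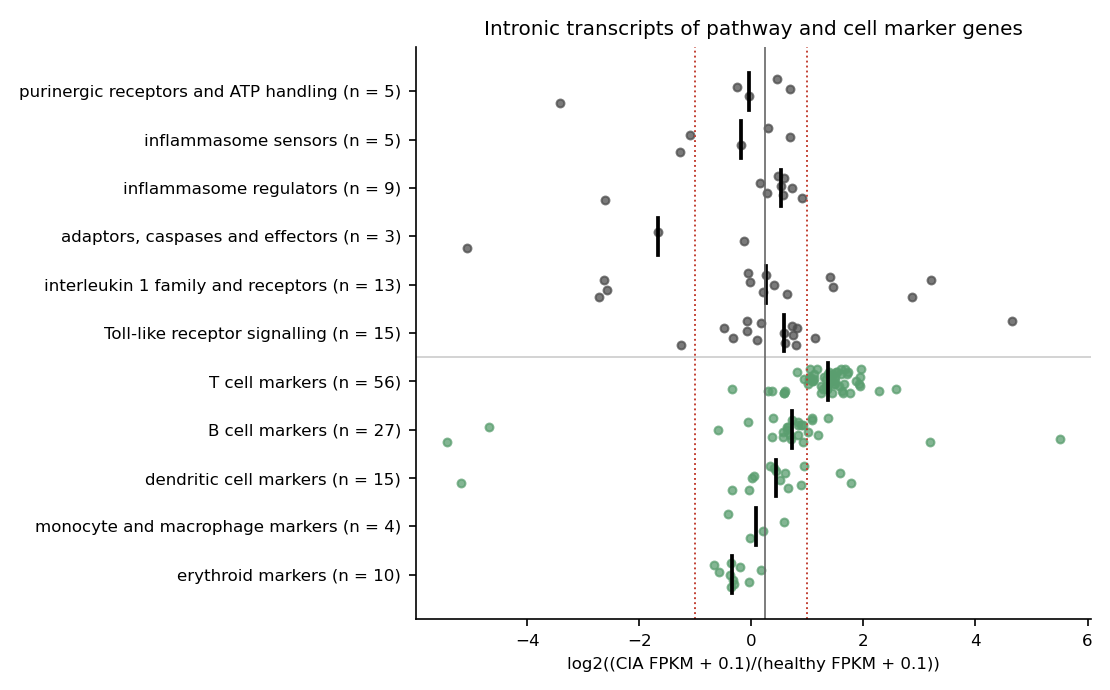
log2 ratio of each intronic transcript past the filter in the pathway lists (grey, without the 5 host genes) and cell marker lists (green), with the median of each list as a black bar, the median of all intronic transcripts as a thin line and 2-fold as dotted lines. T cell markers lie to the right (median 1.38), erythroid markers to the left (median -0.34), and the interleukin 1 family on both sides.

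In the authors' deposited table, none of the 27 transcripts had a p below 0.05. The lowest, 0.138 with a q of 0.842, belonged to Gm37080, which the authors' deposited table nevertheless marks as significant, and 13 of the 27 had a p of 1 there. Among the intronic transcripts the lowest p in the authors' deposited table was 0.243, for MSTRG.26238.1 of Tlr4. These p-values contain no spread between animals.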

How the data were processed

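TRIzol was used for total RNA and Ribo-Zero for rRNA depletion, per the labels' protocols, and StringTie is named in the submitters' processing notes. Aligner, strand setting and statistical test were not given in the sources used here. FPKM values were deposited per transcript by the authors, with 0.0001 in place of 0, which was read as 0 in every value given here. A ratio (fold) and its log2 were deposited too. With 0.0001 kept as deposited, the ratio equalled the quotient of the FPKM columns within 0.01% for all 27 transcripts. Damaged cells of Gm43541 and AI662270, which enter the background counts, were restored from the deposited ratio and the healthy FPKM. The p-values and q-values deposited by the authors are only quoted. Each of the 15172 annotated transcripts matched GENCODE M21 in its coordinates, hence the build GRCm38.

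Columns named model and control were read as CIA and healthy. FPKM holds no counts, so the depth is unknown. From the pathway lists, the 2 highest and 2 lowest log2 ratios per list were named; further transcripts of Il1r1, Irak4, Nek7 and Tlr7 and the neighbours of the loci were chosen after their values were seen. Transcripts, gene lists and settings were chosen with earlier results of these data known. Near copies of the annotated transcripts were sought with blastn 2.17.0 at 95% identity over 100 bases. Gm28501, Gm15441 and 4933439C10Rik matched the coding genes they overlap, and isoforms of 4933439C10Rik also matched Wdr33 and Gm25692 over 121 and 125 bases. Python 3.11.15, numpy 2.4.6, pandas 2.3.3 and matplotlib 3.10.9 were used.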

Additional observations from a re-analysis of the deposited data

How the results depend on the processing

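No paired analysis was possible because only 1 library stood in each group. The median log2 ratio of the 24 transcripts past the filter, 0.32, was 0.07 when centred on the intronic and 0.020 when centred on the annotated median, and that of the pathway transcripts, 0.27, was 0.020 and -0.027; the other settings gave 0.19 to 0.40 and 0.20 to 0.35. The 4 higher and 3 lower calls among the 27 became 0 and 0 with a pseudocount of 1 FPKM and 1 and 1 under a 4-fold rule. Centring on the median of the annotated (0.30) or of the intronic transcripts (0.25) left 2 higher, leaving out transcripts over coding exons left 2 higher, a filter of 1 FPKM left 1 lower, and summing per gene left 0 lower. Of the 50 pathway transcripts, 3 were higher with a pseudocount of 1 FPKM, 3 higher and 6 lower under the 4-fold rule, and 2 higher and 5 lower as gene sums. The cause of these changes was not tested beyond what each setting does by construction. Summing per gene puts the gene sum in place of the transcript. It gave -0.043 for P2rx7, where MSTRG.29798.1 alone stood at 1.33, while the P2rx7 sum weighted by length was 0.11. For 4933439C10Rik it gave 0.044, where 4933439C10Rik-204 and 4933439C10Rik-202 alone stood at -1.27 and -2.60. Leaving out the Aim2 pair within Cadm3, a setting chosen after seeing the data like the sums weighted by length, left 4 higher and 3 lower calls and a median of 0.24, while the weighted sum of Gm15441 was 3.30 against 2.67. The lack of a depth limits every value, most of all those that rest on less than 1 FPM.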

Other observations

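A spliced antisense transcript outside the 27, MSTRG.2439.1, runs opposite to Aim2 from 173391466 to 173438787 on chromosome 1, with 2 exons and 3456 bases. It was at 3.39 FPKM in CIA spleen against 1.75 FPKM in healthy spleen, a ratio of 1.93, larger than the ratios of the 7 Aim2 intronic transcripts, which ended at 1.87. Like them it stayed below the 2-fold rule, with a log2 ratio of 0.91. Unlike them, it is classed in the authors' assembly as overlapping exons of Aim2 on the opposite strand. Without a stated strand setting, reads of both strands are not separated over that overlap, the same limit as for Gm28501. The part of Aim2 exon reads in its ratio was not tested, so its rank above the intronic transcripts is a description only.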
